A study of Homo sapiens with 4 samples.

Results

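Replication-dependent histone genes encode the bulk of the proteins that package newly made DNA. They were taken as the genes whose symbol in the deposited transcript table begins with HIST1H, HIST2H, HIST3H or HIST4H, the symbols of the histone clusters on chromosomes 6, 1 and 12, and they comprised 70 of 23217 gene symbols and 76 of 44578 transcripts. By symbol, 6 of the 70 belong to the class of the linker histone H1, 17 to that of the core histone H2A, 20 to H2B, 13 to H3 and 14 to H4. The H2A and H2B counts include annotated pseudogenes. RNA came from LV-M100, a clonal subpopulation with low cell-to-cell variability derived from the human breast cancer line MDA-MB-231, and was collected 48 h after siRNA transfection. The siControl condition comprised 2 libraries, one from cells given the negative control siRNA NC1 and one from cells given the BLOCK-iT Fluorescent Oligo, and the siSNRNP40 condition comprised 2 libraries from cells given siSNRNP40 #1 or siSNRNP40 #2, against a protein of the U5 particle of the spliceosome. All 4 libraries therefore derive from 1 clone and carry a transfected oligonucleotide. Ribosomal RNA was depleted from total RNA before library preparation, and a selection for polyadenylated RNA is not described.

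The table gives 1 FPKM value per transcript and condition (a level of RNA, in fragments, that is already divided by transcript length and library size), pooled from the 2 libraries. No value below therefore has a replicate error, no difference was tested, and the spread between replicates and the depth are unknown. The siSNRNP40 to siControl ratio is given throughout as a log2 fold of FPKM, without a pseudocount. SNRNP40 itself was listed at 40.4 FPKM in siControl and 6.12 FPKM in siSNRNP40, 84.9% lower. Of markers of the parental line, VIM had a mean level of 742 FPKM over both conditions, CD44 of 129 FPKM and MKI67 of 68.1 FPKM. ESR1, PGR and CDH1 were each below 0.1 FPKM, the leukocyte gene PTPRC was listed at 0 and the endothelial gene PECAM1 had a mean of 1.06 FPKM, whereas the epithelial gene EPCAM, which was taken to be low or absent, was present at 10.3 FPKM.

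Histone proteins are needed in amounts that match DNA synthesis, and the mRNAs of these genes accumulate in S phase and are degraded when replication ends. Most of the genes have no introns, so their transcripts do not need the spliceosome, and the mRNA usually ends not in a poly(A) tail but just after a conserved stem-loop. The stem-loop is bound by SLBP, and the end is formed with the help of the U7 particle. Many genes of the family lie back to back, an H2A gene and an H2B gene sharing the DNA between them. H2A, H2B, H3 and H4 form the core of the nucleosome, and H1 binds the DNA between nucleosomes.

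In the GENCODE annotation of GRCh37, the build of the deposited coordinates, 67 of the 70 symbols matched a gene of their class at the same place. Of these 67, 64 had a single exon in the transcript that the annotation tags as canonical. Other annotated transcripts of a gene were not counted and may have more exons. HIST2H2BA had 5 exons, and no exon count was obtained for HIST1H4B and HIST2H2BC. The search was for a stem of 6 base pairs that opens with GG and closes with CC, around a loop of 4 bases. At most 1 of the pairs could be G with T. Such a stem-loop was present within 150 bases of the stop codon in all 63 genes with an annotated stop codon. It began 23 to 68 bases after the stop, with a median of 36.0. The same search found it in 1.11% of 19693 other protein-coding genes and in 1.40% of 997 other single-exon genes. There were 10 distinct versions of its 16 bases, and the commonest was in 37 genes. The genes below were chosen with their levels known, to show a strongly expressed gene of several classes beside a gene listed at 0, with the stem and loop in capitals and the DNA letters read along the gene's own strand.

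HIST1H2BJ (H2B, the highest mean level; chr6:27100095-27100120, minus strand): ctaacGGCTCTTTTAAGAGCCaccca
HIST1H2AM (H2A; chr6:27860477-27860502, minus strand): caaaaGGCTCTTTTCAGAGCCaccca
HIST1H1C (H1; chr6:26055967-26055992, minus strand): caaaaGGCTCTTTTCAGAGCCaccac
HIST1H4H (H4; chr6:26285354-26285379, minus strand): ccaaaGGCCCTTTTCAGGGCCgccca
HIST1H4D (H4, listed at 0 in both conditions; chr6:26188938-26188963, minus strand): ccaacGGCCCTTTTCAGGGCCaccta

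HIST1H4H and HIST1H4D carry the same 16 bases, although HIST1H4H was listed at 117 FPKM in siControl and HIST1H4D at 0. HIST1H2AM and HIST1H1C, genes of different classes, also share theirs. The letters of the stem followed the class. All 12 H4 genes with a stem-loop had a stem that opened with GGCCC and closed with GGGCC, and no gene of another class had both. GGCTC and GAGCC were found in all 6 H1, 16 H2B and 13 H3 genes and in 14 H2A genes, and HIST1H2AG and HIST1H2AK each had a single change from these letters.

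The promoters also differed in letters between classes. Among the 300-base promoters from RefSeq for GRCh38.p14, windows that end just after the gene start, 59 of the 70 genes were matched. CCAAT, read on both strands, was in 84.7% of these 59 and in 34.5% of the 35053 other promoters. All 15 H2A, 16 H2B, 11 H3 and 6 H1 promoters held it, but only 2 of 11 H4 promoters did. TATAAA was in 67.8% of the 59 and 11.4% of the others. The octamer ATTTGCAT was in 11 of 15 H2A promoters and 12 of 16 H2B promoters, in 1 of 11 H3 promoters and in 0 of 6 H1 and 0 of 11 H4 promoters, against 1.71% of other promoters. The H2A and H2B counts are not separate. Back-to-back H2A and H2B genes lie 169 to 288 bases apart, less than the 300-base window, so 1 motif can count for both. CCAAT was found in 83.8% of the promoters of 37 genes with a mean of at least 1 FPKM and in 86.4% of the promoters of 22 genes below that, the octamer in 45.9% and 31.8% and TATAAA in 78.4% and 50%.

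Between 11 pairs of back-to-back H2A and H2B genes that matched the annotation, CCAAT was present in all 11 stretches. TATAAA was in 8, the octamer in 7 and each of the 3 motifs in 6. The first pair below was strongly expressed on both sides, the second showed a large imbalance between its genes and the third, of testis-specific genes, was below 1 FPKM on both sides; the pairs were chosen with their levels known. Capitals mark matches to the CCAAT motif, to the TATAAA motif and to the octamer named above, on either strand, and overlapping matches run together.

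HIST1H2BJ and HIST1H2AG (chr6:27100575-27100821, plus strand): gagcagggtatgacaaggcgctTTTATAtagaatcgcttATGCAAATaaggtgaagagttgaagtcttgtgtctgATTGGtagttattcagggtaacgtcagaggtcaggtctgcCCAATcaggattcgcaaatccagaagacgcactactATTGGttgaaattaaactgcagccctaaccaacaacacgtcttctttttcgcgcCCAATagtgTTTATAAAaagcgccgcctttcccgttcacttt
HIST1H2AJ and HIST1H2BM (chr6:27782556-27782799, plus strand): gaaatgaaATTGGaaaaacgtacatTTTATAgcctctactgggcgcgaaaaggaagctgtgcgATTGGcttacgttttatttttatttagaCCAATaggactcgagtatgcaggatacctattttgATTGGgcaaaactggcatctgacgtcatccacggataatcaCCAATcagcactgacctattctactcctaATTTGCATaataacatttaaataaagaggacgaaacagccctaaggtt
HIST1H2AA and HIST1H2BA (chr6:25726791-25727004, plus strand): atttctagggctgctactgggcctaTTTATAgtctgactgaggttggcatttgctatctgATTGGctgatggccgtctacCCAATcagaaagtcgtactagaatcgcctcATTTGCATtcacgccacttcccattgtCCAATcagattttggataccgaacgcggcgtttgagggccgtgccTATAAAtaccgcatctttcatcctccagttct

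These are among the 6 stretches that hold each motif. The other matched pair below 1 FPKM, HIST3H2A and HIST3H2BB, has CCAAT but neither TATAAA nor the octamer. The expressed pair HIST1H2AK and HIST1H2BN lacks the same ones.

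Levels spanned a wide range. Of the 70 genes, 43 had a mean of at least 1 FPKM over both conditions, and these are described gene by gene. There were 23 genes at 100 FPKM or more, 16 between 10 and 100 FPKM and 4 between 1 and 10 FPKM. The remaining 27 did not exceed 0.832 FPKM in either condition, with 5 listed at 0 in both. The deposited status of all 5 is NOTEST, not that of a failed estimate. Without counts a listed 0 cannot be told from a very low level, and no fold is given for any of the 27. The gene just inside the limit, HIST1H2BI, had a mean of 1.52 FPKM, and the one just outside had 0.624 FPKM. The 5 most abundant genes in siControl made up 49.3% of the summed FPKM of the family, and the 10 most abundant made up 69.6%.

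**Figure D1:**
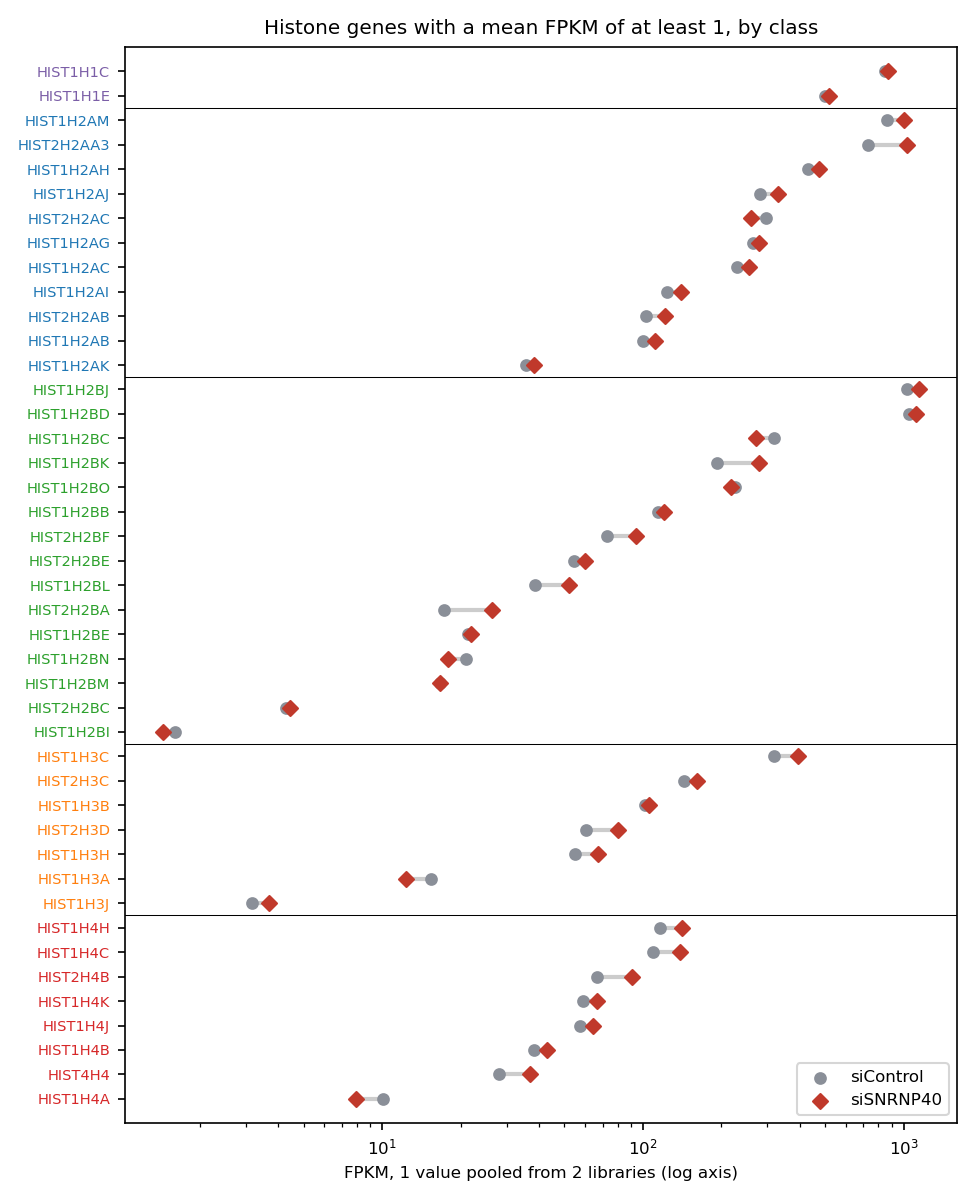
FPKM (log axis) of the 43 histone genes with a mean of at least 1 FPKM, grouped by class, with circles for siControl and diamonds for siSNRNP40, each 1 value pooled from 2 libraries. For 35 genes the diamond lies to the right of the circle, and no pair is 2-fold or more apart.

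The histone genes were, as a group, slightly higher in siSNRNP40. Summed over all 70 genes, the level was 9167 FPKM in siControl and 10289 FPKM in siSNRNP40, 12.2% higher (log2 fold 0.17). The family made up 1.78% of all FPKM of the table in siControl and 1.99% in siSNRNP40. Among the 43 genes, 35 were higher in siSNRNP40 and 8 were lower, while 50.5% of all 12334 genes past the same limit were higher. The median log2 fold of the 43 genes was 0.16, against 0.0034 for all genes. The quartiles of the log2 fold over all genes were -0.17 and 0.17, so the median of the histone genes lay just below the upper one.

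No histone gene with a mean of at least 1 FPKM differed by 2-fold between the conditions. Of the 43, 0 had an absolute log2 fold above 1, where 1.47% of all genes did. With so small a share over all genes, a count of 0 among 43 does not set the family apart. The pseudogene HIST2H2BA, at 17.2 FPKM in siControl and 26.3 FPKM in siSNRNP40, was higher by 1.5 times or more, as were 3.77% of all genes. HIST2H2BA matched an annotated noncoding gene of 5 exons without a stop codon, so it is not a typical member of the family. Lower by that much were 0 histone genes, against 3.25% of all genes. With shares this small, counts of 1 and 0 among 43 do not set the family apart either. The log2 folds of the 43 ran from -0.34 to 0.61, the highest being that of HIST2H2BA. Counted as single transcripts, 1 of 49 histone transcripts with a mean of at least 1 FPKM passed an absolute log2 fold of 1. It was a minor form of HIST2H2BF, at 3.78 FPKM in siControl and 0.373 FPKM in siSNRNP40. Of all transcripts past the same limit, 10.5% passed that fold. These shares are hard to compare, since the family has 76 transcripts for 70 genes and the whole set 44578 for 23217. Of histone genes at 100 FPKM or more, 20 of 23 were higher, and of all genes at that level 413 of 784 were.

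All classes had a higher sum in siSNRNP40, by 2.97% for H1, 8.44% for H2B, 16.9% for H2A, 18.1% for H3 and 21.6% for H4. The core classes H2A and H2B dominated the levels, with 37.7% and 34.7% of the family's FPKM in siControl, whereas H3 had 7.61% and H4 5.30%. These are shares of RNA per length, not of protein.

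**Figure D2:**
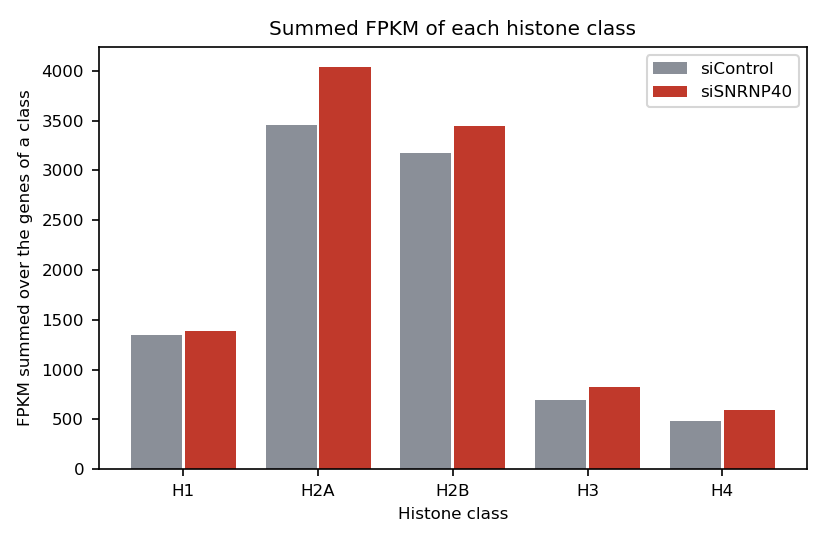
FPKM summed over all genes of each histone class, in siControl (grey) and siSNRNP40 (red), 1 pooled value per bar and no error. H2A went from 3456 to 4039 FPKM and H1 from 1350 to 1390 FPKM.

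Nearly all linker histone RNA was listed for a pair of genes. HIST1H1C was listed at 850 FPKM in siControl and 872 FPKM in siSNRNP40 (log2 fold 0.04), and HIST1H1E at 499.6 and 518 FPKM (0.05). Both differed by a few percent between the conditions, the smallest class difference. The other 4 H1 genes, which include the testis-specific form, were below 1 FPKM.

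In the H2A class, 10 of 11 genes past the limit were higher in siSNRNP40. HIST2H2AA3 had the largest gain of any histone gene, from 729 to 1030 FPKM (log2 fold 0.50), and it accounted for 26.9% of the family's gain in summed FPKM. It is listed at 2 loci on chromosome 1 with identical sequence, at 365 FPKM each in siControl and 515 FPKM each in siSNRNP40. How reads that map to both copies were divided is not given in the sources used here, so its summed level is less certain than its ratio. Without HIST2H2AA3 the H2A sum had a log2 fold of 0.14 in place of 0.22. HIST1H2AM, the most abundant H2A gene in siControl, went from 862 to 1003 FPKM (0.22). HIST1H2AH went from 429 to 472 FPKM (0.14), HIST1H2AJ from 281 to 329 FPKM (0.23), HIST1H2AG from 265 to 279 FPKM (0.07) and HIST1H2AC from 230 to 255 FPKM (0.15). These genes thus differed less than HIST2H2AA3. HIST2H2AC was the exception in direction, at 297 FPKM in siControl and 259 FPKM in siSNRNP40 (-0.20), although HIST2H2AB, its neighbour on chromosome 1, went from 103 to 122 FPKM (0.24). HIST1H2AI went from 124 to 140 FPKM (0.18), HIST1H2AB from 100.5 to 112 FPKM (0.15) and HIST1H2AK from 35.7 to 38.2 FPKM (0.10). HIST1H2AI and HIST1H2AJ share 67.4% and 72.6% of their 50-base windows with other histone genes, so reads could be split between them. For HIST2H2AC, the lower gene, the share is 26.8%.

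The H2B class was the most divided, with 10 of 15 genes higher in siSNRNP40 and 5 lower. The most abundant, HIST1H2BD and HIST1H2BJ, were listed at 1051 and 1028 FPKM in siControl and at 1117 and 1147 FPKM in siSNRNP40 (log2 folds 0.09 and 0.16). HIST1H2BK went from 192 to 278 FPKM (0.53) and HIST1H2BL from 38.5 to 52.3 FPKM (0.44). HIST2H2BF, summed over its 3 transcripts, went from 72.6 to 93.9 FPKM (0.37), and HIST2H2BE from 54.3 to 59.8 FPKM (0.14). Against these, HIST1H2BC went from 318 to 270 FPKM (-0.24), HIST1H2BN from 21.0 to 18.0 FPKM (-0.23), HIST1H2BI from 1.60 to 1.44 FPKM (-0.16) and HIST1H2BO from 225 to 218 FPKM (-0.05). Little separated the conditions for HIST1H2BM, at 16.7 FPKM in both, for HIST1H2BE, at 21.4 and 21.8 FPKM, for HIST1H2BB, at 114 and 120 FPKM, or for the pseudogene HIST2H2BC, at 4.26 and 4.42 FPKM. Several H2B transcripts are listed with loci far longer than a histone coding sequence. That of HIST1H2BK is among them, with a locus of 8566 bases that is also listed for an H4 gene. With transcripts whose locus spans more than 1000 bases left out, the log2 fold of the H2B sum was 0.06 in place of 0.12. In HIST1H2BD the main transcript went from 1035 to 1091 FPKM (0.08) and a minor one from 16.4 to 26.2 FPKM (0.67). In HIST2H2BF the main transcript went from 59.8 to 78.6 FPKM, and a separate locus of that symbol from 8.98 to 14.99 FPKM.

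Of the 7 H3 genes past the limit, 6 were higher in siSNRNP40. HIST1H3C provided 45.6% of the class in siControl and went from 318 to 393 FPKM (log2 fold 0.30). HIST2H3C, listed at 2 identical loci, went from 144 to 161 FPKM (0.17), HIST1H3B from 102 to 106 FPKM (0.06), HIST2H3D from 60.5 to 80.2 FPKM (0.41), HIST1H3H from 55.0 to 67.3 FPKM (0.29) and HIST1H3J from 3.17 to 3.67 FPKM (0.21). HIST1H3A alone in the class was lower, at 15.4 and 12.4 FPKM (-0.31).

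The H4 genes had the largest class difference, and 7 of 8 were higher in siSNRNP40. HIST1H4H went from 117 to 141 FPKM (log2 fold 0.27), HIST1H4C from 109 to 139 FPKM (0.35) and HIST2H4B, listed at 2 identical loci, from 66.9 to 91.2 FPKM (0.45). HIST1H4K and HIST1H4J, which share over 90% of their 50-base windows with other histone genes, went from 59.0 to 66.4 FPKM (0.17) and from 57.2 to 64.5 FPKM (0.17). HIST1H4B went from 38.3 to 42.7 FPKM (0.16). HIST4H4, the single gene on chromosome 12, went from 28.0 to 36.9 FPKM (0.40). HIST1H4A was lower, at 10.0 and 7.91 FPKM (-0.34), and it lies next to HIST1H3A, the lower gene of the H3 class.

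The HIST2 sum of 10 genes on chromosome 1 went from 1549 to 1928 FPKM (log2 fold 0.32), with 9 of 10 genes higher in siSNRNP40, but without HIST2H2AA3 from 820 to 898 FPKM (0.13). The HIST1 sum on chromosome 6 went from 7590 to 8323 FPKM (0.13), with 25 of 32 genes past the limit higher. The difference between the clusters was not tested. The 3 HIST3 genes together reached 0.536 FPKM in siControl.

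Along chromosome 6, genes near 0 FPKM lay in runs between expressed ones. A run of 14 consecutive HIST1 genes, listed between chr6:26188938-26271612 of hg19 and holding genes of all 5 classes, did not exceed 0.186 FPKM in either condition, and no transcript of another gene is listed inside it. It was flanked by HIST1H2BE at 21.4 FPKM on one side and, on the other, by HIST1H2BI at 1.60 FPKM and then HIST1H4H at 117 FPKM in siControl. A second run, of 4 genes, lay at chr6:27833107-27841289 and did not exceed 0.370 FPKM. Of the genes in the longer run that have an annotated stop codon, all carry the stem-loop. Among the 4 groups of HIST1 genes set apart by position, the sum of the second, which contains the long run, went from 3896 to 4130 FPKM (log2 fold 0.08), that of the third from 1914 to 2175 FPKM (0.18) and that of the fourth from 1778 to 2017 FPKM (0.18).

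**Figure D3:**
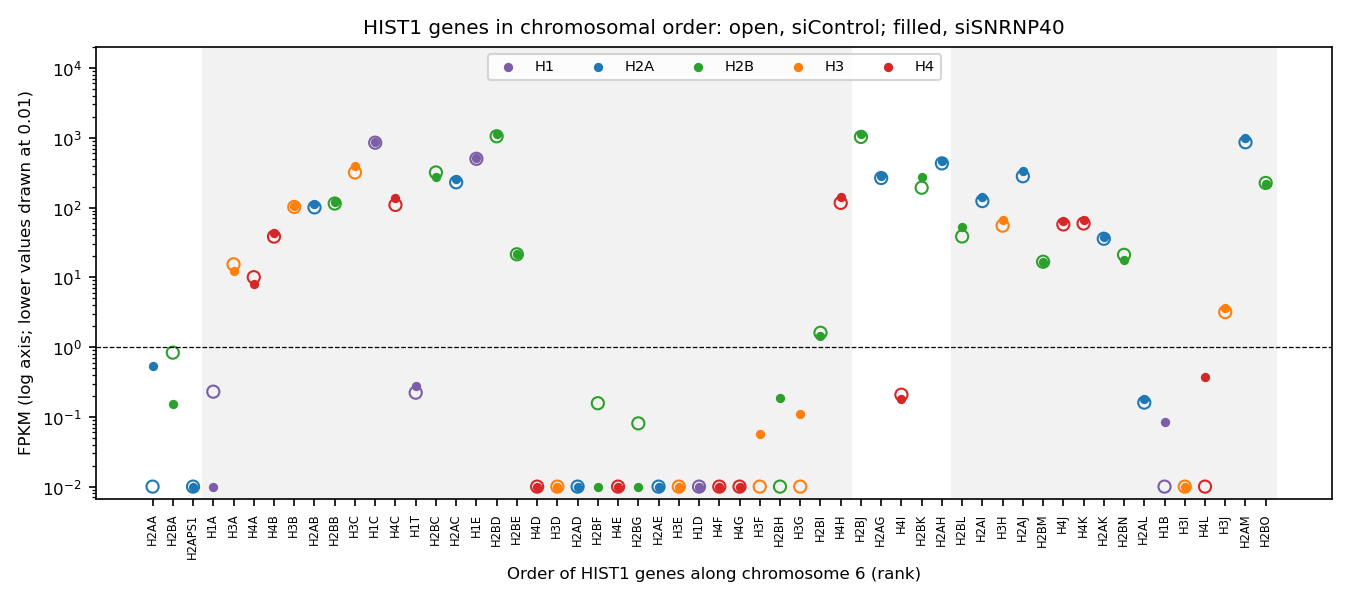
FPKM (log axis) of the 56 HIST1 genes in their order along chromosome 6, coloured by class, with open circles for siControl and filled circles for siSNRNP40, values below 0.01 drawn at 0.01, shading for alternate position groups and a dashed line at 1 FPKM. A run of 14 adjacent genes lies below 0.186 FPKM in both conditions, between HIST1H2BE at 21.4 FPKM and HIST1H2BI at 1.60 FPKM in siControl.

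Back-to-back H2A and H2B genes were on together but not at equal levels. Of 11 such pairs among genes matched to the annotation, separated by 169 to 288 bases, 9 had both genes at 1 FPKM or more. Of the rest, 2 had both genes below it and 0 were split. A pair with an unmatched gene was not counted. The H2A gene had the higher level in siControl in 7 of the 9. HIST1H2AJ and HIST1H2BM, at 281 and 16.7 FPKM, differed 16.8-fold, and the copy of HIST2H2AA3 next to the pseudogene HIST2H2BC, at 365 FPKM, was 85.5-fold above it. HIST1H2AG and HIST1H2BJ leaned the other way, at 265 and 1028 FPKM. The log2 folds of the pair had the same sign in 4 of the 9. HIST1H2AC and HIST1H2BC, at 0.15 and -0.24, went in opposite directions, whereas HIST1H2AH and HIST1H2BK, at 0.14 and 0.53, did not.

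Genes that act with the histone genes were examined beside them, and none of these lists had a median as high as that of the histone genes. Among the histone genes outside the clusters, most of which encode variants, 5 of 11 were higher in siSNRNP40 (median log2 fold -0.0041). H2AFZ was at 388 FPKM in siControl and 323 FPKM in siSNRNP40 (-0.26), H2AFY, which encodes macroH2A, at 161 and 132 FPKM (-0.28), H3F3B at 173 and 168 FPKM (-0.04) and H3F3A at 132 and 121 FPKM (-0.13). These 4 were each lower in siSNRNP40, whereas 35 of the 43 genes of the clusters were higher.

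Of 18 genes for the 3' end processing and decay of histone mRNA, 7 were higher (median log2 fold -0.02). SLBP went from 71.2 to 67.1 FPKM (-0.09), the cap-binding gene NCBP2 from 71.3 to 85.1 FPKM (0.25) and its partner NCBP1 from 26.9 to 21.5 FPKM (-0.32). CPSF2 and CPSF3, of the cleavage complex, went from 57.1 to 47.9 FPKM (-0.25) and from 45.8 to 43.2 FPKM (-0.08). MIF4GD, an SLBP partner in translation, had the largest difference, at 4.92 and 7.44 FPKM (0.60).

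Of 8 genes for histone gene transcription, 4 were higher (median log2 fold -0.07). NPAT, the coactivator of these genes, was at 19.6 and 19.9 FPKM (0.02) and CDK2, the kinase that activates it, at 28.4 and 28.8 FPKM (0.02). The cyclin genes CCNE1 and CCNE2 went from 14.7 to 11.9 FPKM (-0.31) and from 33.9 to 26.01 FPKM (-0.38), while E2F1 went from 8.66 to 11.0 FPKM (0.35). Of 22 chaperone genes, 7 were higher (median -0.06). NPM1 was at 2618 and 2698 FPKM (0.04), SET at 462 and 440 FPKM (-0.07), NAP1L1 at 178 and 199 FPKM (0.17) and NASP at 166 and 157 FPKM (-0.07). ANP32E went from 35.9 to 28.2 FPKM (-0.35) and ASF1B from 14.6 to 11.7 FPKM (-0.32).

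Genes of the cell cycle had medians below that of the histone genes. Of 42 S phase and replication genes, 23 were higher in siSNRNP40, with a median log2 fold of 0.01. The sliding clamp gene PCNA was at 138 and 152 FPKM (0.13), the helicase genes MCM3 and MCM7 at 174 and 174 FPKM (-5.90e-04) and 103 and 112 FPKM (0.11), and RRM1, of ribonucleotide reductase, at 157 and 155 FPKM (-0.01). Of 17 genes of G2 and mitosis, 1 was higher, with a median of -0.10. CCNB1 was at 285 and 256 FPKM (-0.16), TOP2A at 254 and 227 FPKM (-0.16), CENPF at 172 and 147 FPKM (-0.23), KIF20A at 75.4 and 65.5 FPKM (-0.20) and CDK1 at 157 and 153 FPKM (-0.04). In bulk RNA fewer cells in a phase and less RNA per cell cannot be told apart, and the part of the cell cycle in the histone levels was not tested.

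Other genes without introns had medians nearer to that of all genes. Of 16 well-known intronless genes past the limit, 7 were higher (median log2 fold -0.04). HSPA1B and HSPA1A, which encode heat shock proteins, were at 101 and 103 FPKM (0.02) and 85.2 and 85.5 FPKM (0.01), JUN at 60.5 and 55.6 FPKM (-0.12), IER5 at 31.8 and 42.8 FPKM (0.43) and CEBPD at 9.91 and 7.08 FPKM (-0.49). Of 169 protein-coding genes outside the histone clusters with a single exon in the canonical transcript, 96 were higher (56.8%). The median log2 fold of the 169 was 0.04.

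**Figure D4:**
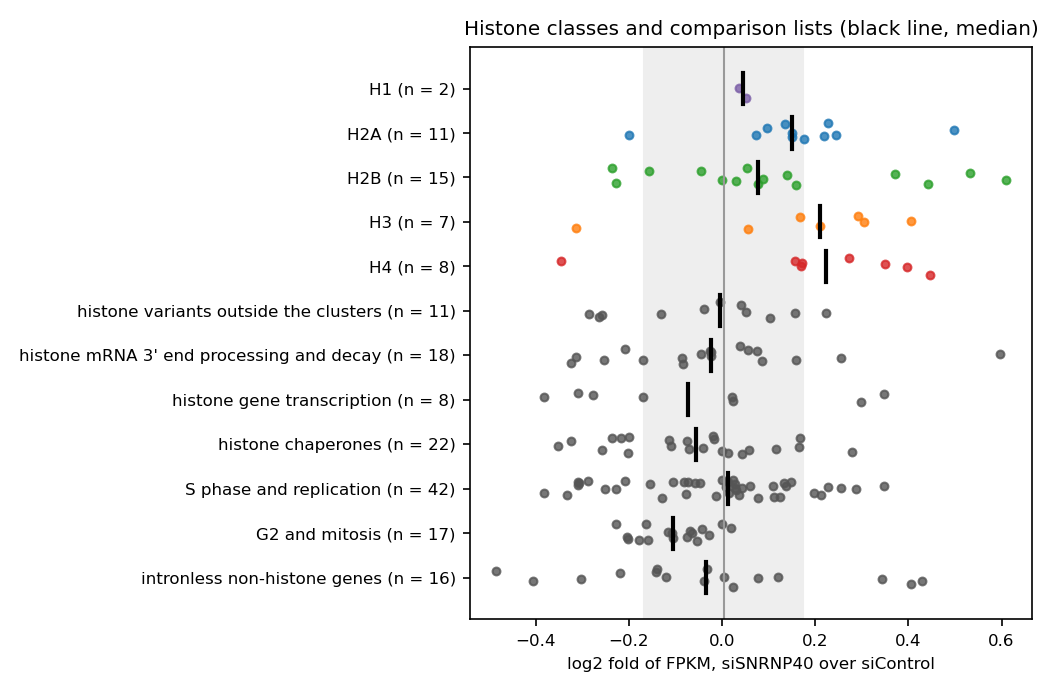
Log2 fold of FPKM (siSNRNP40 over siControl) of each gene with a mean of at least 1 FPKM, in the 5 histone classes (coloured) and the comparison lists (grey points), with a black line at each median; the grey band spans the quartiles of all genes and the grey line marks their median. The medians lie at 0.04 for H1, 0.15 for H2A, 0.08 for H2B, 0.21 for H3 and 0.22 for H4, and those of the comparison lists between -0.10 and 0.01.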

How the data were processed

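RNA of 2 siControl and 2 siSNRNP40 libraries was used as the authors' transcript table. Per the study's methods and processing notes, adapters and low-quality bases were cut with cutadapt 1.2.1, TopHat 2.0.8 aligned the reads (hg19), Cufflinks built transcripts, and Cuffdiff 2.0.2 set siControl against siSNRNP40. Each deposited FPKM is a Cuffdiff estimate for 1 transcript, pooled over the libraries of a condition, and depth is unknown. The authors' log2 fold changes, test statistics, p-values and q-values were not used. FPKM was summed over the transcripts of a symbol, and genes with a mean of at least 1 FPKM entered counts and medians. These 43 may be named and the others are given by counts and ranges, except HIST1H4D and the pairs HIST1H2AA with HIST1H2BA and HIST3H2A with HIST3H2BB, named for their sequences after their values were seen. Of each list the 4 highest and the 2 with the largest absolute log2 fold were named. The members and lists were chosen with earlier results of these data known. Listed starts were raised by 1 to count from 1. Annotation was GENCODE release 44 lifted to GRCh37 and RefSeq. The counting steps were tested on simulated data. Python 3.11.15, pandas 2.3.3 and pysam 0.24.0 were used. Because values per library were planned for and not used here, the descriptions replaced the limma test.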

Additional observations from a re-analysis of the deposited data

How the results depend on the processing

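Of 49 values under the alternatives, 45 moved by less than 0.1 on the log2 scale or, for counts, by no more than 1.5 times. No median or summed log2 fold changed sign, and a count could not. The limit of 0.1 is loose for folds this small. It leaves the H2B sum as unmoved at 0.12 and, without long loci, 0.06. The number of histone genes past an absolute log2 fold of 1 was 0, but 11 with no filter on low values, 1 with each transcript counted on its own and 1 with a fold of 1.5. The median log2 fold ranged from 0.14 to 0.19, the lower value without symbols at 2 loci or with over 90% shared windows, an alternative chosen after seeing the data. The log2 fold of the summed FPKM ranged from 0.13, without HIST2H2AA3, also chosen after seeing the data, to 0.20 with upper-quartile scaling. The HIST2 sum had a log2 fold of 0.32, and of 0.13 without HIST2H2AA3. Class sums ranged from 0.04 to 0.07 for H1, 0.14 to 0.26 for H2A, 0.06 to 0.15 for H2B, 0.18 to 0.27 for H3 and 0.28 to 0.31 for H4.

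No paired analysis was possible because each condition is 1 pooled column without replicate numbers. Leaving out a replicate, limma with a replicate block and a pseudocount of 0.1 on values per library were therefore not run. No transcript names several genes, so that alternative gave no value. Without values per library, and with the authors' test statistics left unused, no difference here is set against an error.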
